A study of Mus musculus with 4 samples.

Results

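Interleukin-6 family cytokines, their receptors and the STAT3 pathway that they drive were examined in mouse cortex 24 h after permanent middle cerebral artery occlusion (pMCAO). The members were the 10 genes Il6, Il11, Lif, Clcf1, Osmr, Lifr, Il6ra, Il6st, Stat3 and Socs3 out of 18194 genes measured, and all 26 probe sets that name 1 of them alone were taken, out of 34958 single-gene probe sets on the array. RNA from the cortex of 3-month-old C57BL/6J mice was hybridized to Affymetrix mouse expression arrays. The 4 conditions were the ipsilateral (left, occluded) and the contralateral cortex of P4H-TM deficient mice, written here as P4htm-/- ipsilateral and P4htm-/- contralateral, and the same sides in wild-type (WT) mice. Every mouse had been occluded, so the contralateral cortex is the uninjured side of an operated animal and no sham-operated cortex was on the arrays. P4H-TM is a transmembrane prolyl 4-hydroxylase that acts on the hypoxia-inducible factor, and the P4htm-/- line had been bred onto a C57BL/6 background.

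Each condition was 1 array made from the pooled RNA of 4 mice. There is therefore no replicate, no test was made, and a difference is described as higher or lower when it reached 1.5-fold, which is 0.585 on the log2 scale, and 1 or both of the arrays exceeded background. Background was set at 4.79 on the log2 scale, below which 95% of 81 sensory-receptor probe sets (odorant, pheromone and taste receptors) fell. Where only 1 of the compared values lay above background, the other was raised to 4.79 and a bound on the difference is printed. Between conditions the values of these sensory-receptor probe sets differed with an SD of 0.175 to 0.206, and probe sets of 1 gene differed from each other with an SD of 0.126 to 0.175 over 15464 probe sets. These SDs hold technical scatter and not the spread between mice. In such bulk tissue, fewer cells of a type and less RNA per cell cannot be told apart. The targeted gene P4htm read 8.23 on the P4htm-/- ipsilateral, 8.27 on the P4htm-/- contralateral, 10.02 on the WT ipsilateral and 10.03 on the WT contralateral array for its brighter probe set. It was lower in P4htm-/- cortex on both sides, at -1.79 and -1.76, although where its probes lie relative to the deleted part was not determined. The neuronal markers Rbfox3, Snap25 and Syt1 lay above background on all 4 arrays.

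Cytokines of the interleukin-6 family are secreted helical proteins, most of which share the signaling receptor chain gp130, encoded by Il6st. Interleukin-6 and interleukin-11 first bind their own receptor chains and then pair gp130 with itself, whereas leukemia inhibitory factor, cardiotrophin-like cytokine and oncostatin M bring gp130 together with the LIF receptor or the oncostatin M receptor. The receptor-bound JAK kinases then phosphorylate the transcription factor STAT3, which enters the nucleus and switches on genes such as Socs3, whose product binds gp130 and the JAK kinases and shuts the signal off. In injured brain this pathway is best known for its part in the conversion of astrocytes to the reactive state and in the acute-phase response.

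The promoters are shown for those members that were higher in the injured cortex and whose proximal promoter held a letter match upstream of the start to a motif of an injury-responsive transcription factor. The windows run from 250 bases before to 50 bases after a RefSeq transcription start on GRCm38.p6, and 9 of the 10 members had 1 or more, giving 11 windows. Clcf1 had none. Motifs were searched on both strands as TTCNNNGAA for STAT factors, TGANTCA for AP-1, TTNNGCAA for C/EBP and the consensus of NF-kB, and no match overlapped one of another motif. The 250 bases upstream of Il6 lie at chr5:30012864-30013113 on the plus strand and those of Lif at chr11:4257318-4257567 on the plus strand. For Il11 and Socs3 the window lies wholly within the span of the gene, and only 30 bases around the match are given, at chr7:4778221-4778250 and chr11:117969501-117969530, both on the minus strand. Capitals mark the matches.
Il6: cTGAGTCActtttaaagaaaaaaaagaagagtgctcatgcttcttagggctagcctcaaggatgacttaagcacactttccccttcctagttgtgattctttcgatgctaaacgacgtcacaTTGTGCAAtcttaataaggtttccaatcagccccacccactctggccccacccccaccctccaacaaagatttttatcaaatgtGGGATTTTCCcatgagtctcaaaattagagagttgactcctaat
Lif: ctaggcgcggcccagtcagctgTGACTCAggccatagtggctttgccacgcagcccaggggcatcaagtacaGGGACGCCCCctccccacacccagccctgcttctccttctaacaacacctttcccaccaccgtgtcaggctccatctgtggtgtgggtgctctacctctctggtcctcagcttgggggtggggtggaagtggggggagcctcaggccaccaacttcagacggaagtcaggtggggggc
Il11: aggagggagggTGAGTCAggatgtgtcagg
Socs3: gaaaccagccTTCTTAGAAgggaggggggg

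The Il6 window held an AP-1 match at -249 to -243, a C/EBP match at -128 to -121 and an NF-kB match at -44 to -35, counted from the start. Lif held an AP-1 match at -228 to -222 and an NF-kB match, on both strands, at -178 to -169, and Il11 held an AP-1 match at -98 to -92 in 1 of its 2 windows, while that of Osmr lay at 4 to 10, behind the start. The AP-1 letters were thus found in 4 of the 11 windows and in 7.81% of all 32851 windows of the mouse genome table. The STAT letters were found in 1 of the 11 windows, at -154 to -146 of Socs3, and in 8.3% of all windows. The NF-kB consensus matched in 2 of the 11 windows, those of Il6 and Lif, and in 8.46% of all, and the C/EBP letters in 1 of the 11, that of Il6, and in 10.8% of all. Such a match describes the letters alone and is not evidence of binding, and the windows without a match, those of Stat3, Il6st, Il6ra and Lifr and the other of Il11, say nothing about these factors.

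**Figure D1:**
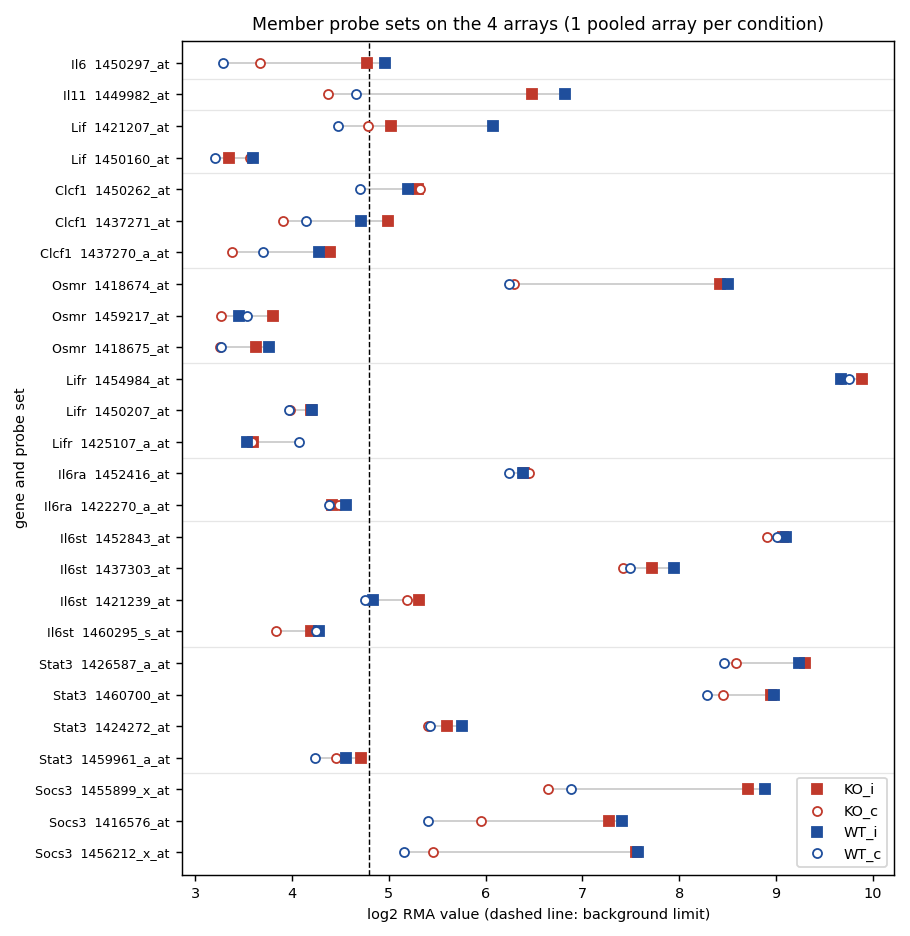
Log2 RMA value (horizontal axis) of each of the 26 member probe sets (rows, grouped by gene) on the 4 arrays. P4htm-/- (KO) is red and WT blue, filled squares are ipsilateral (_i) and open circles contralateral (_c) cortex, each symbol is 1 pooled array, and a dashed line marks background at 4.79. The squares stand clear of the circles in both genotypes for Il11, for the Osmr probe set 1418674_at and for the 3 Socs3 probe sets.

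Among the ligands, Il11 had the most plainly separated values. Interleukin-11 is a gp130 cytokine first known from stromal cells. Its single probe set 1449982_at read 6.48 on the P4htm-/- ipsilateral and 4.37 on the P4htm-/- contralateral array, against 6.82 on the WT ipsilateral and 4.66 on the WT contralateral array. Both ipsilateral values were high and both contralateral values were below background, so the sides did not overlap. The measured difference was 2.11 in P4htm-/- and 2.16 in WT cortex, and the bounds were at least 3.23-fold and at least 4.08-fold.

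Il6, the founding cytokine of the family and a driver of fever and of the acute-phase response, was at the edge of detection. Its probe set 1450297_at read 4.77 on the P4htm-/- ipsilateral and 3.67 on the P4htm-/- contralateral array, and 4.96 on the WT ipsilateral and 3.29 on the WT contralateral array. Only the WT ipsilateral value exceeded background, by less than the scatter of the sensory-receptor probe sets, and the P4htm-/- ipsilateral value missed it narrowly. Both ipsilateral values were above both contralateral ones. The measured difference was 1.67 in WT cortex, but the bound was only 1.13-fold, and the 1.10 measured in P4htm-/- cortex lay below background on both sides.

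Lif encodes leukemia inhibitory factor, a cytokine that acts on neurons and glia after nerve and brain injury. Its brighter probe set 1421207_at read 5.02 on the P4htm-/- ipsilateral and 4.78 on the P4htm-/- contralateral array, against 6.08 on the WT ipsilateral and 4.47 on the WT contralateral array. The WT ipsilateral array stood alone, and the other 3 arrays lay within a narrow range near background. The side difference was 0.24 in P4htm-/- cortex and 1.61, or at least 2.45-fold, in WT cortex. The other Lif probe set, 1450160_at, lay below background on every array, at 3.35, 3.56, 3.60 and 3.20 on the P4htm-/- ipsilateral, P4htm-/- contralateral, WT ipsilateral and WT contralateral arrays, so Lif rests on 1 probe set.

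Clcf1, which encodes a cytokine that acts through the ciliary neurotrophic factor receptor, gave no common picture over its 3 probe sets. The brightest, 1450262_at, read 5.30 on the P4htm-/- ipsilateral, 5.32 on the P4htm-/- contralateral, 5.2 on the WT ipsilateral and 4.70 on the WT contralateral array. Here the WT contralateral array was the low one and the other 3 were alike. In 1437271_at the values were 4.99, 3.91, 4.71 and 4.14 in the same order of arrays, and in 1437270_a_at they were 4.39, 3.38, 4.28 and 3.70. In both of these the ipsilateral arrays were the high ones, although only 1 value, that of 1437271_at on the P4htm-/- ipsilateral array, exceeded background. The side difference in P4htm-/- cortex was therefore -0.02 by the brightest probe set and 1.08, with a bound of 1.15-fold, by 1437271_at.

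Of the receptor genes, Osmr was the one with a higher level in the injured cortex. The oncostatin M receptor is the chain that pairs with gp130 for oncostatin M and is carried by astrocytes and endothelial cells. Its probe set 1418674_at read 8.42 on the P4htm-/- ipsilateral and 6.29 on the P4htm-/- contralateral array, and 8.50 on the WT ipsilateral and 6.24 on the WT contralateral array. The ipsilateral values lay far above the contralateral ones in both genotypes, and within a side the genotypes were almost equal. The difference was 2.13 in P4htm-/- cortex, which is 4.38-fold, and 2.26 in WT cortex, which is 4.79-fold. The remaining probe sets of the gene, 1459217_at and 1418675_at, were below background on all arrays, between 3.25 and 3.80, and a mean over the 3 lowers the differences to 1.01 and 0.89.

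The shared chain Il6st, which the ligands among the members need, was close to even between the sides. Its brightest probe set 1452843_at read 9.07 on the P4htm-/- ipsilateral, 8.91 on the P4htm-/- contralateral, 9.10 on the WT ipsilateral and 9.01 on the WT contralateral array. The ipsilateral values were slightly above the contralateral ones, by 0.16 and 0.09, which is within the technical scatter. The side difference of 1437303_at was larger, at 0.30 in P4htm-/- and 0.46 in WT cortex, and those of 1421239_at, which was near background at 5.31, 5.19, 4.84 and 4.75, were 0.12 and 0.09. The fourth, 1460295_s_at, was below background on every array, at 4.19, 3.83, 4.28 and 4.25 in the same order. None of the 4 Il6st probe sets reached 1.5-fold in any comparison.

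Lifr, the receptor chain for LIF, read 9.89 on the P4htm-/- ipsilateral, 9.67 on the P4htm-/- contralateral, 9.67 on the WT ipsilateral and 9.76 on the WT contralateral array in 1454984_at. Its side differences were 0.22 and -0.09, with the P4htm-/- ipsilateral array highest. Il6ra, the ligand-binding chain for interleukin-6, read 6.40, 6.45, 6.39 and 6.24 in the same order of arrays in 1452416_at. All 4 Il6ra values were alike to within 0.21, and the other probe sets of both genes lay below background on all arrays.

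Stat3, the transcription factor at the end of the receptor pathway and itself one of its targets, was moderately higher in the injured cortex. The probe set 1426587_a_at read 9.30 on the P4htm-/- ipsilateral and 8.59 on the P4htm-/- contralateral array, against 9.24 on the WT ipsilateral and 8.46 on the WT contralateral array. Probe set 1460700_at read 8.95 and 8.45 on the P4htm-/- arrays and 8.98 and 8.29 on the WT arrays, ipsilateral before contralateral. In both, the ipsilateral arrays were above the contralateral ones without overlap. The difference was 0.71 in P4htm-/- and 0.78 in WT cortex for 1426587_a_at, which is 1.64-fold and 1.72-fold, while for 1460700_at it was 0.50, short of 1.5-fold, and 0.69. The dimmer probe sets 1424272_at and 1459961_a_at gave 0.20 and 0.26 in P4htm-/- and 0.33 and 0.32 in WT cortex, the same direction at a smaller size, and the values of 1459961_a_at did not exceed background.

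Socs3, the feedback inhibitor of gp130 signaling, was higher in the injured cortex by all of its 3 probe sets. The brightest, 1455899_x_at, read 8.71 on the P4htm-/- ipsilateral and 6.64 on the P4htm-/- contralateral array, and 8.89 on the WT ipsilateral and 6.88 on the WT contralateral array. The probe set 1456212_x_at read 7.55 and 5.46 on the P4htm-/- arrays and 7.57 and 5.16 on the WT arrays, and 1416576_at read 7.27 and 5.95 on the P4htm-/- arrays and 7.41 and 5.40 on the WT arrays, ipsilateral before contralateral. In each probe set both ipsilateral arrays lay above both contralateral ones by more than 1 log2 unit. The difference was 2.07, 2.09 and 1.32 in P4htm-/- cortex and 2.01, 2.41 and 2.01 in WT cortex, in the order of probe sets above. The names of 2 of them hold an x, the array maker's mark for probes that may also bind other transcripts.

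**Figure D2:**
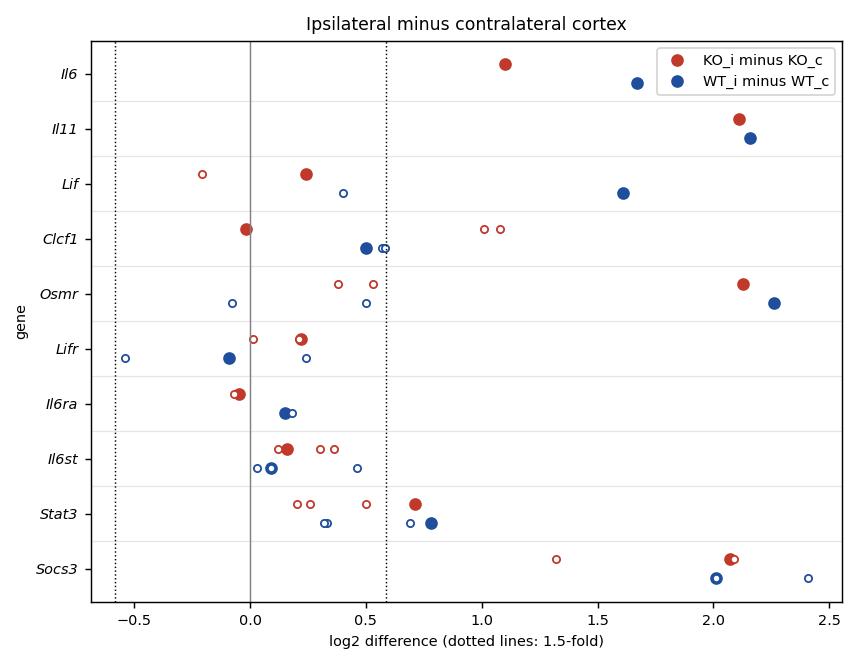
Log2 difference between ipsilateral and contralateral cortex (horizontal axis) of each member gene (rows) in P4htm-/- (KO, red, upper) and WT (blue, lower) cortex, 1 pooled array per condition. Large filled points are the brightest probe set of a gene, small open points its other probe sets and dotted lines 1.5-fold. Il11, Osmr and Socs3 sit near 2 in both genotypes, and Lif at 0.24 in P4htm-/- and 1.61 in WT cortex.

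Counted by gene with the brightest probe set, 4 of the 10 members were higher in P4htm-/- ipsilateral than contralateral cortex, namely Il11, Osmr, Stat3 and Socs3, and 0 were lower, where 1.53% of all 13309 genes above background were higher and 0.165% lower. In WT cortex 6 of the 10 were higher, the same 4 with Il6 and Lif, and 0 were lower. There 2.42% of 13320 genes were higher and 0.443% lower. Il6 counted in WT cortex alone because its ipsilateral value there, 4.96, exceeded background, while that in P4htm-/- cortex, 4.77, did not. Without the detection filter 5 members were higher in P4htm-/- and 6 in WT cortex, and with values set to background 4 and 5. How far the genotypes differ in these counts, and in the medians below, thus depends in part on that filter. The median over the members above background was 0.24 in P4htm-/- cortex (9 genes) and 1.20 in WT cortex (10 genes), against -0.02 over all genes above background in each genotype, and with Il6 included the P4htm-/- median was 0.47. Counted by probe set, 7 of the 26 were higher in P4htm-/- cortex, against 1.27% of all, and 9 in WT cortex, against 2.13%, and 0 were lower in either, against 0.186% and 0.799%. Of the 26 member probe sets 17 were above background on at least 1 array. The members had been chosen with such values known, and these shares describe them only.

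Between the genotypes, the members differed little apart from Lif in the injured and Clcf1 in the uninjured cortex. In ipsilateral cortex 0 of the 10 genes were higher in P4htm-/- than in WT mice, where 0.0898% of 13363 genes were, and 1 was lower, where 0.576% were. That gene was Lif, at -1.06 or 0.48 of the WT level, with values of 5.02 and 6.08, while its undetected probe set gave -0.25. With the stricter background of 6.59, the 99th percentile of the sensory-receptor probe sets, the Lif values counted as undetected. Counted by probe set, 0 were higher and 1 lower, against 0.215% and 0.498% of all. The values for Osmr, at -0.08, Socs3, at -0.18, -0.14 and -0.02, and Stat3, at 0.06, -0.03 and -0.16 over the probe sets above background, were all within about 1 SD of the technical scatter. Il11 was at -0.34, with the P4htm-/- value the lower one, and did not reach 1.5-fold. Lifr, at 0.22, and the Il6st probe set 1421239_at, at 0.47, had the highest positive values among probe sets above background on both arrays.

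In contralateral cortex 1 of the 10 genes was higher in P4htm-/- than in WT mice, where 0.227% of 13207 genes were, and 0 were lower, where 0.159% were. Counted by probe set, 1 was higher and 0 lower, against 0.362% and 0.323% of all. That was Clcf1, whose probe set 1450262_at gave 0.62 with a bound of 1.44-fold, whereas 1437271_at and 1437270_a_at gave -0.23 and -0.32 on values below background, and the mean of the 3 gave 0.02. The Socs3 probe sets did not run in 1 direction, at -0.24 for 1455899_x_at, 0.55 for 1416576_at and 0.30 for 1456212_x_at. Stat3 was at 0.13 and 0.16 in its brighter probe sets and Osmr at 0.05. Il6, Il11 and Lif lay below background on both contralateral arrays.

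The response to injury was then set side by side as the P4htm-/- side difference minus the WT side difference. For Lif this was -1.37, the only member gene past 1.5-fold, where 1.35% of 13448 genes were past 1.5-fold downward and 0.528% upward. For Osmr it was -0.13, for Il11 -0.05, for Stat3 -0.07 and for the brightest Socs3 probe set 0.06. Both contralateral values of Lif and of Il11 were below background, and with such values set to background these became -1.06 for Lif and -0.34 for Il11. The Socs3 probe set 1416576_at gave -0.69 and 1456212_x_at -0.32, and with Lif that made 2 of the 26 probe sets past 1.5-fold downward and 0 upward, against 1.46% and 1.03% of all. The Socs3 probe sets thus disagree on whether the response was equal. Il6 gave -0.57 from values at or below background.

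**Figure D3:**
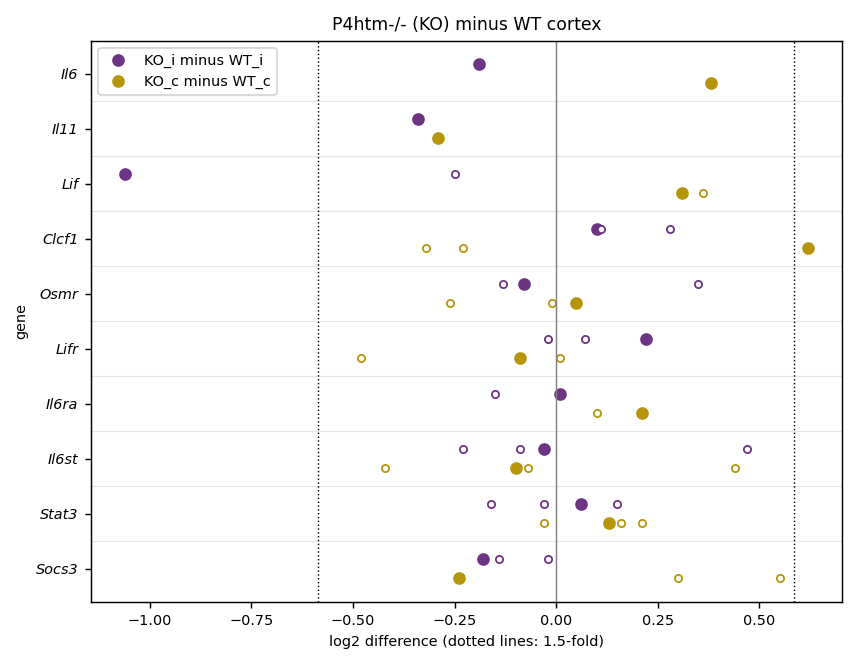
Log2 difference between P4htm-/- (KO) and WT cortex (horizontal axis) of each member gene (rows) for the ipsilateral (purple, upper) and the contralateral side (yellow, lower), 1 pooled array per condition. Large filled points are the brightest probe set of a gene, small open points its other probe sets, and dotted lines 1.5-fold. Lif at -1.06 on the ipsilateral and Clcf1 at 0.62 on the contralateral side are the points past the lines.

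Other genes of the pathway were taken from lists written from general knowledge with earlier results of these data known. Their counts describe the listed genes only. Among the other ligands, Osm, the ligand of the oncostatin M receptor, made mainly by myeloid cells, read 5.0 on the P4htm-/- ipsilateral, 4.78 on the P4htm-/- contralateral, 4.89 on the WT ipsilateral and 4.57 on the WT contralateral array. Its ipsilateral values were just above and its contralateral values just below background, with measured differences of 0.22 and 0.32. None of the 4 measured other ligands and none of the 7 measured other receptors and sheddases reached 1.5-fold in any of the comparisons. With 1.53% and 2.42% of all genes higher on the ipsilateral side, and smaller shares between the genotypes, this does not set them apart. Cntfr, the ciliary neurotrophic factor receptor, was at 0.05 in P4htm-/- and 0.07 in WT cortex. Cntf and Il11ra1 were not analysed here.

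In the signaling chain between receptor and nucleus, 0 of 18 measured kinases, STAT factors and adaptors were past 1.5-fold in any comparison, which at the 1.53% and 2.42% of all genes higher on the ipsilateral side does not set them apart, with a median side difference of 0.03 in P4htm-/- and 0.00 in WT cortex over those above background. Jak1, Jak2 and Tyk2, the kinases bound to gp130, were at 0.16, 0.08 and -0.11 in P4htm-/- cortex and at 0.10, -0.02 and -0.04 in WT cortex. Of 15 measured inhibitors other than Socs3, 1 was higher in each genotype, by 0.73 in P4htm-/- and 0.86 in WT cortex. This was Ptprc, the leukocyte phosphatase CD45, which is also a general marker of leukocytes. Socs1 lay below background on all arrays and Cish, an inhibitor induced through STAT5, was at 0.05 and 0.04 between the sides, while the difference between P4htm-/- and WT cortex was 0.31 on the ipsilateral and 0.30 on the contralateral side, short of 1.5-fold.

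In the lists of STAT3 targets, more genes were higher on the injured side, but these lists too were chosen with such values known. Of 18 early targets, 3 were higher in P4htm-/- cortex and 3 in WT cortex, with 0 lower and a median of 0.22 and 0.21 over those above background, where 1.53% and 2.42% of all genes were higher. Cebpd, a transcription factor of the acute-phase response, was higher by 1.27 in P4htm-/- and 1.5 in WT cortex, and Bcl3, a nuclear IkB protein, by 0.67 and 0.84. Cebpb was at 0.73 and 0.47 and Myc at 0.43 and 0.66, each past 1.5-fold in 1 genotype only, and whether the genotypes differ there was not tested. Fos and Junb, at 0.22 and 0.22 in P4htm-/- and 0.34 and -0.05 in WT cortex, did not reach the limit.

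Of 20 acute-phase genes 10 were above background on some array, and 7 were higher in P4htm-/- and 8 in WT cortex. A2m, a protease inhibitor, was higher by 2.60 and 2.45, and Timp1, the inhibitor of metalloproteinases, by 2.72 in P4htm-/- and at least 3.50 in WT cortex. Lcn2, an iron-binding lipocalin, was higher by at least 1.93 and by 1.65, and the serpin Serpina3n by 2.14 and 2.23. Lrg1, Lbp and Cp were higher by 0.93, 0.86 and 0.85 in P4htm-/- and by 0.61, 0.91 and 0.84 in WT cortex. Hp was past 1.5-fold in WT cortex alone, at 0.69 with a bound of 0.27. The listed genes Saa1, Saa2, Orm1, Orm2, Fga, Fgb, Fgg, Hamp and Itih4 lay below background on all arrays, as did Steap4. Of 14 astrocyte targets, which share Serpina3n, Timp1, Lcn2 and Steap4 with that list, 7 were higher in P4htm-/- and 11 in WT cortex, among them Gfap, the astrocyte filament protein, by 1.83 and 2.13, and Cd44, a hyaluronan receptor, by 2.08 and 2.46. Over all 48 measured targets of these 3 lists, 14 were higher in P4htm-/- and 19 in WT cortex, against 1.53% and 2.42% of all genes, and 0 were lower. With the stricter background, 5 acute-phase genes were higher in P4htm-/- and 4 in WT cortex. Of the astrocyte targets, 7 were then higher in each genotype. Between the genotypes on the ipsilateral side 0 of the 48 were past 1.5-fold, where 0.0898% of all genes were higher and 0.576% lower. At these shares that count does not set the targets apart. Timp1 was at -0.58, just inside the limit, and 1 of the 48 was lower with median centring or cyclic loess. On the contralateral side the measured differences of Timp1, at 0.62, and Lcn2, at -0.78, were past 1.5-fold, but the bounds were only 0.20 and -0.10, and neither was past it with values set to background or with the stricter background. In the P4htm-/- side difference minus the WT side difference, 1 of the 48 was past 1.5-fold upward, Lcn2 at 0.96, and 3 downward, Timp1 at -1.20, Hp at -0.79 and Thbs1 at -0.78, against 0.528% and 1.35% of all genes. Each of these rests in part on values below background. With such values set to background, the side differences of Lcn2 were 1.93 in P4htm-/- and 1.65 in WT cortex, and those of Hp -0.02 and 0.27. Those of Timp1 were then 2.72 in P4htm-/- and 3.50 in WT cortex, still more than 1.5-fold apart. For Thbs1 the WT bound was 0.20, with both P4htm-/- values below background.

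**Figure D4:**
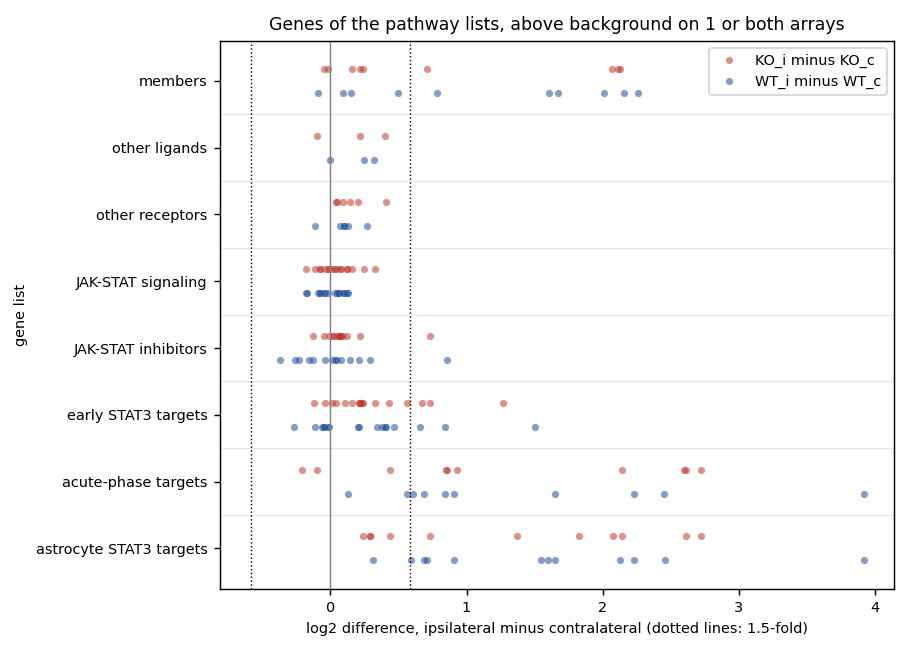
Log2 difference between ipsilateral and contralateral cortex (horizontal axis) of the genes of each pathway list (rows) in P4htm-/- (KO, red, upper) and WT (blue, lower) cortex. Each point is 1 gene above background on at least 1 of its arrays, and dotted lines mark 1.5-fold. The points of the JAK-STAT signaling row stay between the dotted lines, while several of the acute-phase and astrocyte rows lie above 2.

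The genes with the most similar pattern over the 4 arrays were found by the Euclidean distance between log2 profiles, each taken minus its own mean, among 13447 genes above background on at least 1 array. For Osmr these were Arg1 at a distance of 0.08, Tgm1 at 0.09, Serpina3n at 0.18, and Cd44 and Gfap, both at 0.24. For Socs3 they were Il11 at 0.15, Tgfbi at 0.18, Gfap at 0.23, Ccl3 at 0.26 and Osmr at 0.27, so 2 of the 5 were members. For Stat3 they were Bcl3 at 0.05, Sbno2 at 0.06, Gbp7 at 0.08, Cdt1 at 0.10 and Mt2 at 0.12. For Lif, whose profile was less common, they were Upp1 at 0.34, Dpm3 at 0.36, Fosl1 at 0.37, Mgp at 0.39 and S100a4 at 0.42. Both contralateral values of Arg1, Tgm1, Il11, Ccl3, Fosl1 and Lif itself were below background, so their matches rest in part on undetected values. Profiles of 4 arrays carry little information, and all of these distances are a description.

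Some markers of other tissue and cells moved with the same comparisons, while others hardly did. Of 10 markers of choroid plexus and ependyma, 8 were above background on some array, and their summed signal on the linear scale was 13100 on the P4htm-/- ipsilateral, 871 on the P4htm-/- contralateral, 17800 on the WT ipsilateral and 760 on the WT contralateral array. On the ipsilateral arrays nearly all of that sum was Ttr, the thyroxine carrier of the choroid plexus, while on the contralateral arrays the other markers held a larger part. Ttr read 13.62, 9.03, 14.06 and 8.71 on the log2 scale in the same order of arrays, and 3 of the 10 markers were higher in P4htm-/- and 5 in WT ipsilateral cortex. Otx2 and Kcne2 were below background on all arrays. As with Lif, the WT ipsilateral array was the highest for Calml4, at 4.82, 4.29, 6.49 and 4.74, and for Ecrg4, at 7.22, 6.48, 8.38 and 6.35 in the same order of arrays. Of 9 measured neutrophil markers 4 were above background, with S100a8 higher by 2.34 in P4htm-/- and at least 2.41 in WT cortex. S100a9 was higher by 1.57 and at least 1.95, Ltf was at -0.06 and 0.15, and Ngp exceeded background on the P4htm-/- ipsilateral array alone. The markers Mmp8, Mpo, Elane, Camp and Cxcr2 were below background everywhere. The summed signal of the 9 was 486, 233, 402 and 178 in that order. Of 9 measured monocyte and macrophage markers 5 were above background, with Cd14 higher by 1.85 in P4htm-/- and 1.61 in WT cortex and Arg1 by at least 0.87 and 0.97. The others did not reach 1.5-fold, with Ms4a7 at 0.01 and 0.23, Mrc1 at 0.30 and 0.45 and Cd163 at 0.18 and -0.13. The 9 summed to 655, 306, 624 and 302, while Ccr2, Plac8, Chil3 and F10 were below background everywhere. Of 4 measured blood genes 2 were above background, summing over the 4 to 126, 106, 126 and 76.1, and the hemoglobin gene Hbb-b2 was at 6.26, 6.04, 6.14 and 5.06, low on the WT contralateral array alone as the brightest Clcf1 probe set was. Of 9 meningeal and fibroblast markers, all above background, 4 were higher in P4htm-/- and 5 in WT ipsilateral cortex, with sums of 2600, 1920, 2840 and 2110. All 9 measured neuronal markers had higher values in P4htm-/- than in WT ipsilateral cortex, with a median of 0.16 and none past 1.5-fold. All 7 measured oligodendrocyte markers had lower values there, with a median of -0.20 and none past 1.5-fold. The median over all genes above background was -0.01 in that comparison. The share of all genes with a higher or lower value of any size was not counted. Between the sides, the medians of detected markers in P4htm-/- and WT cortex were 0.01 and -0.06 for astrocytes and 0.07 and 0.07 for microglia. They were 0.12 and 0.16 for endothelium, -0.11 and -0.08 for oligodendrocytes and 0.04 and 0.27 for T cells. Of these markers only Gfap, Fcrls and, in WT cortex alone, Cd8a were higher. The part of these markers in the member values was not tested.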

How the data were processed

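Total RNA of 4 mice was pooled for each of 4 conditions, and biotin-labeled cRNA was hybridized to 1 array per condition. The authors quantified the signals with GeneChip Operating System, normalized them with GenePattern software and deposited log2 values per probe set, for which the submitters' processing notes name RMA. RMA corrects background and equalizes the arrays, so a change shared by all genes is lost. The sources used here give no tool versions, and the base 2 of the logarithm was inferred from the range of 2.51 to 14.9. The table held 0 columns that were not used.

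Probe sets were named from the platform annotation, in which 34958 of 45101 name 1 gene, 932 name several and were left out, and 9211 are unnamed here. Symbols were updated through Entrez IDs for 34754 of them with a RefSeq table for GRCm38.p6, whose promoter sequences were also used. The probe set with the highest mean stood for its gene. A difference was called at 1.5-fold with at least 1 array above background. No test, p-value or interval was possible, with 1 array per condition.

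The members, the 7 pathway and 11 marker lists and the motifs were chosen with earlier results of these data known, and the study itself displayed Osmr, Il11 and Il6 from these arrays, so that none of them is independent evidence. A stricter NF-kB pattern, tried first, matched Il6 alone among the members. Named genes are all members, P4htm, a few genes fixed by name, not all of which are reported here, the first 3 markers of a cell type where they are cited as its check, up to 6 genes per list with the largest difference past 1.5-fold, and the 5 nearest profiles of 4 members. Fos, Junb, Serpina3n, Ptprc, Calml4, Ecrg4, S100a8, S100a9, Ngp, Ltf, Ttr, Cd14, Arg1, Ms4a7, Mrc1, Cd163, Fcrls, Cd8a, Hbb-b2, Hp, Thbs1 and the genes listed as below background were named after their values were seen. The same holds for Cp. Alternatives were the mean of probe sets, no detection filter, the 99th percentile as background, a 2-fold limit, median centring, cyclic loess and values set to background. The counting step was tested on simulated data. R 4.3.3 with limma 3.58.1 was used for loess, and Python 3.11.15 with pandas 2.3.3, numpy 2.4.6 and matplotlib 3.10.9 for the rest.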

Additional observations from a re-analysis of the deposited data

How the results depend on the processing

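No paired analysis was possible because each condition is 1 array and the labels give no replicate numbers. Of 56 alternative counts of member genes past the limit, 50 stayed within 1.5 times the reported count, many of them counts that were 0 in both. Of 280 alternative counts of the pathway lists, 264 stayed so, again with many at 0, and 16 moved. The single member higher in P4htm-/- than in WT contralateral cortex, Clcf1, became 0 with the mean of probe sets, with the 99th percentile of 6.59 as background, with a 2-fold limit, with cyclic loess and with values set to background. The single member lower in P4htm-/- than in WT ipsilateral cortex, Lif, became 0 with the 99th percentile as background, where its values count as undetected, and its difference was -0.66 with the mean of probe sets. The number higher in ipsilateral cortex was 3 to 5 in P4htm-/- and 4 to 6 in WT mice over the 7 alternatives. Osmr and Socs3 were in each of these lists, but with the mean of probe sets, which takes in undetected ones, Osmr was at 1.01 in P4htm-/- and 0.89 in WT cortex and its P4htm-/- minus WT side difference at 0.12 instead of -0.13. Clcf1 then entered the P4htm-/- list, at 0.69. Stat3 was left out with the mean of probe sets and with a 2-fold limit, and Il11 was left out in P4htm-/- cortex with the 99th percentile. Il6 entered in P4htm-/- cortex without a detection filter and left in WT cortex with values set to background, at 0.17, and with the 99th percentile, as did Lif with the latter. Of 200 single member differences 175 moved by less than the scatter between probe sets of a gene, with a wider limit where side differences were compared, and 0 of the called ones reversed. Median centring and cyclic loess shifted the median of all genes by only -0.02 to 0.018, so they could move little. The moves came with the mean of probe sets and with values set to background.

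The counts over all genes changed as well. Higher on the ipsilateral side were 204 in P4htm-/- and 322 in WT cortex, which became 126 and 187 with the 99th percentile and 75 and 107 with a 2-fold limit. Between P4htm-/- and WT ipsilateral cortex 12 were higher and 77 lower, which became 7 and 40 with the 99th percentile, 0 and 5 with a 2-fold limit, and 24 higher without a filter. With the mean of probe sets 8 were higher. In contralateral cortex 30 were higher, which became 16 with the mean of probe sets, 13 with the 99th percentile, 4 with a 2-fold limit and 53 without a filter. Signals of Il6, Lif and Clcf1 near background limit what can be read from them.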
